A study of Mus musculus with 12 samples.

Results

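The genes described here encode the proteins of the cytosolic ribosome, measured by RNA sequencing in mouse bone-marrow-derived macrophages with and without interferon gamma (IFNγ). They were chosen by name: an entry was taken when it held a symbol that begins with Rpl or Rps and a digit, or Rpsa, Rplp0, Rplp1 or Rplp2. Symbols of pseudogenes marked -ps and the kinases named Rps6k were left out. The rule found 91 of the 46729 entries of the expression table. Of these, 76 are core subunit genes, 45 of the large and 31 of the small subunit. A further 14 are copies or paralogs of core genes, and Rps19bp1 is a protein that binds Rps19 and is not part of the ribosome.

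The macrophages were grown from the bone marrow of C57BL6 mice over 10 days with interleukin-3 and medium of L-929 cells, a source of CSF-1. Neither a genetic change nor a second agent is named in the labels, and the age and number of the mice are not given there. One group was untreated, and the other 3 received IFNγ for 8 h at a dose of 0.2, 2 or 20 U/ml. Each group has 3 libraries, and the labels do not say whether these came from separate cultures. The deposited table holds 1 value per entry and group, in FPKM, a level per unit of transcript length and per library. There is therefore no replicate check of any difference below and no test, and the depth behind the values is unknown.

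Cytosolic ribosomes are built from a small subunit, which reads the mRNA, and a large subunit, which joins amino acids and passes the new chain through an exit tunnel. Their proteins are made in matched amounts, and their mRNAs are among the most abundant of a cell. Most begin with a run of pyrimidines, the terminal oligopyrimidine or TOP motif, through which the kinase mTOR and the RNA-binding protein Larp1 adjust their translation. In human myeloid cells, IFNγ is known to release RPL13A from the large subunit, after which it joins a complex that blocks translation of selected inflammatory mRNAs.

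Ratios are differences of log2(FPKM + 1), so a positive ratio means a higher value than in the reference group. They were taken from the 11580 entries with a mean of at least 1 FPKM and no value of 0. All 76 core genes passed, with 7 of the 14 copies and Rps19bp1, which gives 84 entries. A ratio of at least 1 in size, a 2-fold difference, was taken as higher or lower. The 3 doses were all set against the same untreated values, and the steps between doses share the values at 0.2 and 2 U/ml, so these comparisons are not separate observations. Of the 84 entries, 21 merge the gene with a neighbour or with small RNAs in its introns, whose reads cannot be told apart from it.

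The cells carried the marks of macrophages and of IFNγ exposure. All 8 macrophage markers were above the filter, among them Csf1r, Adgre1 and Cd68, with a summed level between 2435 and 3126 FPKM over the groups. Irf1, a transcription factor induced by IFNγ, was at 34.1 FPKM untreated and at 89.1, 293 and 511 FPKM at 0.2, 2 and 20 U/ml. All 5 response genes of the check list were higher at 20 U/ml by at least 2-fold, as were 6.51% of all entries. The markers of T and NK cells (5 of 5), erythroid cells (4 of 4), stromal cells (3 of 3) and mast cells (3 of 3) were under 1 FPKM in every group, and so were 2 of 3 B-cell markers. Of 5 neutrophil markers 2 passed, with a summed level of 16.7 FPKM for the whole list untreated and 34.3 at 20 U/ml. Elane, Mpo and Ly6g were under 1 FPKM in every group, with Mpo at 0.78 to 0.97 FPKM. Of 3 dendritic markers, only the entry Clec9a shares with Clec1b passed, at 1.27 FPKM untreated and 47.1 at 20 U/ml. The part of these lists in the results below was not tested.

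The start regions of the genes at both ends of the 0.2 U/ml ranking are printed first, because TOP mRNAs begin with a pyrimidine run at their start. They are the 5 core genes with the highest and the 5 with the lowest ratio at 0.2 U/ml among those with 1 RefSeq start window, followed by Rpl15, the core gene with the highest ratio at 20 U/ml. Each line gives 50 bases before and 25 bases from the annotated start (RefSeq, GRCm38.p6), on the strand that is transcribed, with the longest run of C and T in capitals.
Rpsa, chr9:120127716-120127790, + strand: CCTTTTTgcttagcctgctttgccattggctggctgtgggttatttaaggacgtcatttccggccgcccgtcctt
Rpl24, chr16:55966225-55966299, + strand: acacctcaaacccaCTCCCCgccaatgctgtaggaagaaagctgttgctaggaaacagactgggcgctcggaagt
Rplp2, chr7:141447601-141447675, + strand: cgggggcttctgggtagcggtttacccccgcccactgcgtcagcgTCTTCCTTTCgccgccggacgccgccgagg
Rps13, chr7:116334166-116334240, - strand: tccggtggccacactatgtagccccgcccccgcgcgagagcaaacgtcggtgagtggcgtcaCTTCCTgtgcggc
Rpl41, chr10:128549144-128549218, - strand: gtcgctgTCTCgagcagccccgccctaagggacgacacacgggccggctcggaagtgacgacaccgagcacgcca
Rpl31, chr1:39367801-39367875, + strand: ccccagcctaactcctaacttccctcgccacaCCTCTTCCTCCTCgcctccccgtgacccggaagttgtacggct
Rpl4, chr9:64173337-64173411, + strand: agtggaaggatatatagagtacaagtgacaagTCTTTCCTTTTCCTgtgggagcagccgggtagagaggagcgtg
Rpl10, chrX:74270766-74270840, + strand: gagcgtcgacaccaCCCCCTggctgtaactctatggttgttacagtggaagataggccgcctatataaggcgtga
Rpl35, chr2:39005107-39005181, - strand: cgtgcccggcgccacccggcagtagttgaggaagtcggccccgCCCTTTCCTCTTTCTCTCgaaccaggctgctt
Rpl27a, chr7:109519145-109519219, + strand: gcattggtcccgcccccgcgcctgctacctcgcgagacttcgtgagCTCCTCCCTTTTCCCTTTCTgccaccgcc
Rpl15, chr14:18270962-18271036, - strand: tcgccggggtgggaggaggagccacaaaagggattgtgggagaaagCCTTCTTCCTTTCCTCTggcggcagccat

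The longest run was 7 bases in Rpsa, 6 in Rpl24, 10 in Rplp2, 6 in Rps13 and 4 in Rpl41, picked for high ratios at 0.2 U/ml. It was 13 in Rpl31, 14 in Rpl4, 6 in Rpl10, 18 in Rpl35 and 20 in Rpl27a, picked for low ratios, and 17 in Rpl15. Not all of these runs lay at the annotated start. Counted from it, with the first transcribed base as 1, the run began at -50 in Rpsa, -36 in Rpl24 and Rpl10, -43 in Rpl41, -18 in Rpl31 and Rpl4, and 13 in Rps13. It began at -7 in Rpl35, -5 in Rplp2, and -4 in Rpl27a and Rpl15, and ran across the start in these 4. The genes were picked for their ratios and the annotated start can lie away from the one used in these cells, so this is a description of 11 windows. Over all member genes with a RefSeq window, which were 66 of 91 with 78 windows, a run of at least 8 pyrimidines lay within 25 bases of the start in 42.3%, against 19.7% of the 32851 windows of all 27025 genes.

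Other motifs were searched on both strands of the 300-base windows, 250 before and 50 after the start, and overlaps between them were kept. CGGAAG, the core bound by factors of the Ets family, was in 60.3% of the member windows and in 16.9% of all windows. GGGCGG, the box bound by Sp1, was in 59.0% against 35.7%. TTCNNNGAA, a palindrome known from promoters of IFNγ response genes, was in 5.13% of the member windows, those of Rpl35, Rpl36al, Rpl4 and Rplp0, against 8.30% of all. GAAA repeated after any 2 bases, the core of the element bound by interferon regulatory factors, was in 8.97% against 3.44%, in Rpl27a, Rpl38, Rpl4, Rpl5, Rps19, Rps23 and Rps7. A match describes the letters only.

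In untreated macrophages the core genes spanned a range of 38.1-fold per unit of transcript length, from 157 FPKM for Rpl29 to 5966 FPKM for Rpl41. Their median was 1131 FPKM untreated and 1383, 986 and 905 FPKM with rising dose, where the median over all entries used stayed between 12.3 and 13.3 FPKM. Large-subunit genes had a median of 1062 FPKM untreated and small-subunit genes one of 1280 FPKM. Among the 100 entries with the highest FPKM, 40 were core ribosomal protein genes untreated, and 39, 36 and 27 were with rising dose.

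The most abundant core genes by their mean over the groups were Rpl41, Rplp1, Rpl13a, Rps15 and Rps12. Rpl41 encodes a very short peptide of the large subunit at the contact with the small one, and was at 5966 FPKM untreated and at 11535, 6175 and 4745 FPKM at 0.2, 2 and 20 U/ml. As deposited, the value at 0.2 U/ml stood far above the other 3, but under quantile scaling it was below the untreated value, at a ratio of -0.24. The least abundant were Rpl29, Rpl15, Rps7, Rpl37 and Rpl26. Rpl29, a large-subunit protein, was at 157, 134, 121 and 133 FPKM in the same order, and its 4 values lay within a narrow span.

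**Figure D1:**
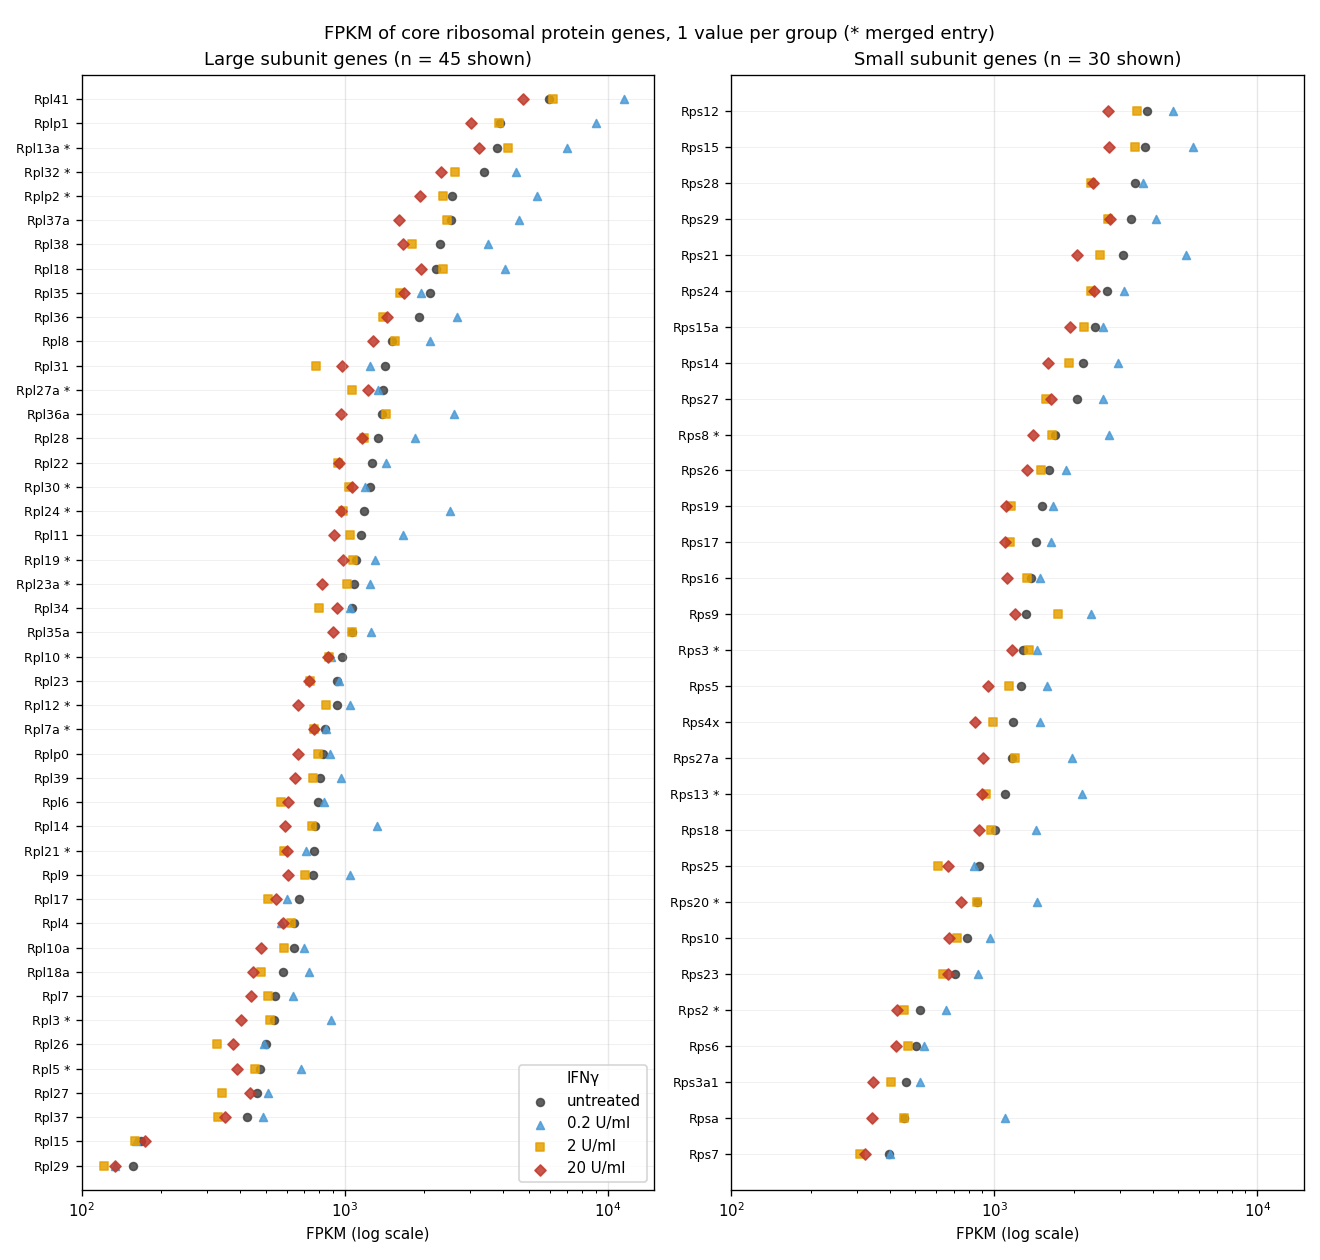
FPKM (log scale, x axis) of the 45 large-subunit and 30 of the 31 small-subunit core genes, with 1 point per gene and group, ordered by the untreated value; an asterisk marks a merged entry. The triangles of 0.2 U/ml lie to the right for most genes and the diamonds of 20 U/ml to the left of the untreated circles for all genes plotted except Rpl15, whose ratio turns below 0 under upper-quartile and quantile scaling.

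Together the 84 entries held 14.6% of the summed FPKM of all entries untreated, and 15.4%, 12.8% and 9.77% with rising dose. Only 89.0% of the sum at 20 U/ml came from entries used for ratios. The rest came from entries with a mean under 1 FPKM or a value of 0 in some group, which were not split. Over the entries used, the shares were 14.7%, 15.6%, 12.8% and 10.99%. The single entry of Eef1a1, an elongation factor that carries tRNA to the ribosome, held 10.8% of the sum at 0.2 U/ml, against 5.03% untreated. Without it the shares were 15.3%, 17.3%, 13.8% and 10.1%. The order of the 4 groups was the same in all of these versions. In a culture measured in bulk, fewer cells of a type and less RNA per cell cannot be told apart, and FPKM gives amounts relative to the library only.

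At 20 U/ml the ribosomal protein mRNAs stood slightly below the untreated level, nearly all of them by a similar amount. The median ratio was -0.31 and 81 of 84 entries were below 0, where 48.9% of all entries were. None was lower by 2-fold, against 2.94% of all entries, and none was higher, against 6.51%. The ratios lay between -0.66 and 0.19, with a standard deviation over entries of 0.147, where all entries gave 0.736. The direction of the median was the same under upper-quartile scaling (-0.45), quantile scaling (-0.31) and centring on other abundant genes (-0.19).

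Both subunits showed the same shift. All 31 small-subunit genes and 44 of 45 large-subunit genes were below the untreated value at 20 U/ml, with medians of -0.30 and -0.32. These counts were 30 and 44 under quantile scaling and 30 and 43 when centred on abundant genes. The exception as deposited was Rpl15, a large-subunit protein needed for the processing of ribosomal RNA. It was at 168 FPKM untreated and at 161, 159 and 174 FPKM at 0.2, 2 and 20 U/ml, a ratio of 0.05 at the highest dose. Its 4 values differed little, and under upper-quartile and quantile scaling its ratio at 20 U/ml was below 0.

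The lowest ratio at 20 U/ml was that of Rpl37a, a zinc-binding protein of the large subunit, at -0.66. It was at 2540 FPKM untreated and at 4608, 2449 and 1609 FPKM at 0.2, 2 and 20 U/ml. The highest and the lowest of these values came from the lowest and the highest dose. Rps21, a small-subunit protein, followed at 3089, 5357, 2529 and 2056 FPKM with a ratio of -0.59 at 20 U/ml. Rpl31, which lies at the end of the exit tunnel, was at -0.55, and the merged entry of Rpl32 and Snora7a at -0.54. Rps28, which lies on the path of the mRNA out of the small subunit, was at 3411, 3677, 2329 and 2361 FPKM, a ratio of -0.53. Its values at 2 and 20 U/ml were nearly equal, unlike those of Rpl37a.

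Other abundant genes were also below the untreated value at 20 U/ml, though less uniformly. Of 301 other protein-coding entries with 1 gene and a mean of at least 300 FPKM, 60.1% were below 0, with a median of -0.12. Of the 100 among them with transcripts shorter than 1000 nt, 70.0% were below 0, with a median of -0.19. Across the 84 members the ratio at 20 U/ml had a Spearman rho of 0.29 with transcript length and of -0.12 with GC content, described without a test because all members come from the same 4 columns.

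**Figure D2:**
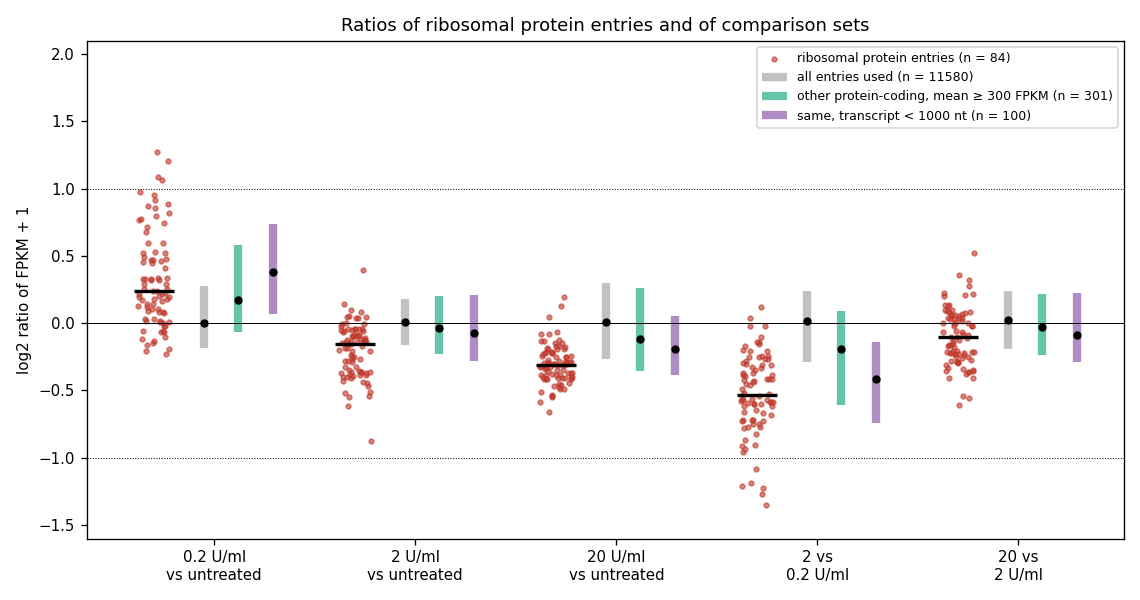
Log2 ratios of FPKM + 1 (y axis) of the 84 ribosomal protein entries (points, line at the median) in 5 comparisons, beside the medians (dots) and interquartile ranges (bars) of all 11580 entries, of 301 other abundant protein-coding entries and of the 100 short ones among these. The points at 20 U/ml form a narrow band below 0 around -0.31; those at 0.2 U/ml spread from -0.23 to 1.27 around 0.24, a median that falls below 0 under quantile scaling.

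At 0.2 U/ml most ribosomal protein entries stood above the untreated value, with a wide spread among them. The median ratio was 0.24 and 70 of 84 entries were above 0, where 50.3% of all entries were above and 49.7% below. Under quantile scaling the direction turned, with a median of -0.10 and 54 entries below 0. Of the 84, 4 were higher by 2-fold, a share near the 5.23% of all entries, and none was lower, against 0.328%. The short abundant genes outside the family had a median of 0.38 at this dose, with 82.0% above 0, which is above the median of the members. Large-subunit genes had a median of 0.22, with 33 of 45 above 0, and small-subunit genes one of 0.32, with 29 of 31 above 0. Under quantile scaling 16 and 12 of these were above 0, with medians of -0.13 and -0.10.

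The 4 entries past 2-fold at 0.2 U/ml were Rpsa, Rplp1, Rpl24 and Rplp2. Rpsa, a small-subunit protein also known as the laminin receptor, was at 454 FPKM untreated and at 1098, 455 and 343 FPKM at 0.2, 2 and 20 U/ml, a ratio of 1.27. Its value at 0.2 U/ml was the only one that stood apart. Rplp1 and Rplp2 form the acidic stalk that draws elongation factors to the ribosome. Rplp1 was at 3903, 9001, 3855 and 3021 FPKM, a ratio of 1.21 at 0.2 U/ml. Rplp2, merged with Snora52, was at 2562, 5362, 2355 and 1930 FPKM, a ratio of 1.07. Both shared the pattern of Rpsa, with the top value at 0.2 U/ml and the lowest at 20 U/ml. Under quantile scaling the ratios at 0.2 U/ml were smaller, at 0.996 for Rpsa, 0.42 for Rplp1 and 0.50 for Rplp2.

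Rpl24, a large-subunit protein at the contact between the subunits, shares its entry with Gm28037 and Zbtb11. That entry was at 1184, 2515, 984 and 968 FPKM, a ratio of 1.09. Rps13, a small-subunit protein whose entry includes Snord14a, came next at 1097, 2152, 931 and 895 FPKM, a ratio of 0.97. Rpl41 had a ratio of 0.95, whose direction depends on the scaling as given above. Among the lowest ratios at 0.2 U/ml were those of Rpl29 at -0.23, Rpl31 at -0.19, Rpl4 at -0.16 and Rpl17 at -0.15.

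Small nucleolar RNAs, which guide the modification of ribosomal RNA, lie in introns of many of these genes. The 29 members with such an RNA inside had a median of 0.19 at 0.2 U/ml and -0.30 at 20 U/ml. The 55 without one had medians of 0.26 and -0.31. The 21 merged entries had medians of 0.24 and -0.27 at these doses and the 63 single ones 0.24 and -0.33. The values of the groups with and without a merged or intronic RNA thus lay close together at both doses.

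At 2 U/ml the median ratio was -0.15, between those of the other doses. Of the 84, 74 were below 0, where 48.4% of all entries were, and 10 above, where 51.6% were. The count above 0 was 4 under upper-quartile and 17 under quantile scaling, and the median stayed below 0 in both. None was higher or lower by 2-fold, against 2.50% and 0.760% of all entries. Rpl31 had the lowest ratio, -0.87, at 1423 FPKM untreated and at 1246, 776 and 972 FPKM at 0.2, 2 and 20 U/ml. Rpl26, another protein at the exit tunnel, was at 500, 492, 326 and 377 FPKM, a ratio of -0.61. Both had their lowest value at 2 U/ml rather than at the highest dose. Rps9, a small-subunit protein at the entry of the mRNA channel, was the highest at 0.39, with 1323, 2330, 1739 and 1194 FPKM.

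From 0.2 to 2 U/ml the median step was -0.53 and 82 of 84 entries were below 0 and 2 above, where 48.2% of all entries were below and 51.8% above. Under quantile scaling this step was small, with a median of -0.06, 50 entries below 0 and 31 above. As deposited, in this step 6 entries were lower by 2-fold, a share near the 6.26% of all entries, and none was higher, against 1.51%. None of these stayed past 2-fold under quantile scaling. They were Rpl24 (-1.35), Rpsa (-1.27), Rplp1 (-1.22), Rps13 (-1.21), Rplp2 (-1.19) and Rps21 (-1.08). This step and the comparison of 0.2 U/ml with untreated share the value at 0.2 U/ml. From 2 to 20 U/ml the median was -0.11, with 54 entries below 0 and 30 above, where 47.0% of all entries were below. None was past 2-fold in this step, against 2.90% of all entries higher and 1.11% lower. Counted over the groups, 68 members had their highest value at 0.2 U/ml, where 31.4% of all entries did, and 53 had their lowest at 20 U/ml, where 32.3% did. Under quantile scaling 27 members had their highest value at 0.2 U/ml, where 25.2% of all entries did, and 53 their lowest at 20 U/ml, where 34.8% did, with values shared by groups counted for neither.

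**Figure D3:**
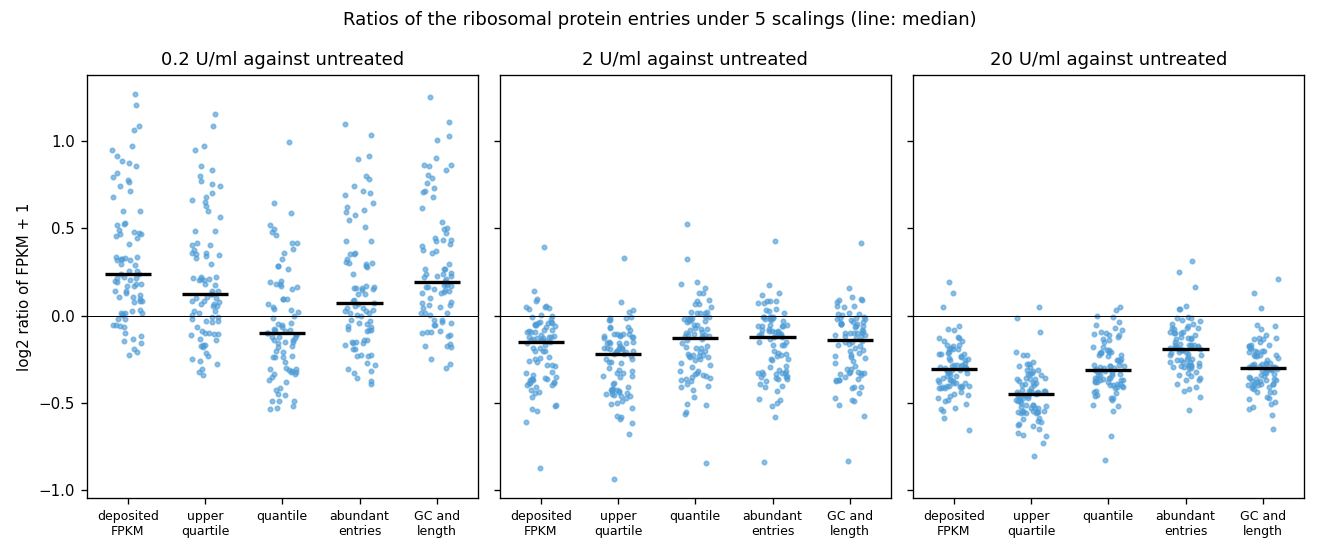
Log2 ratios of FPKM + 1 (y axis) of the 84 entries at each dose against untreated under 5 scalings, with a line at the median. At 20 U/ml the line lies below 0 in all 5, between -0.45 and -0.19; at 0.2 U/ml it runs from 0.24 as deposited to -0.10 under quantile scaling.

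Described by place in the ribosome, the medians of the groups below spanned 0.07 to 0.62 at 0.2 U/ml and -0.39 to -0.29 at 20 U/ml. The 4 genes of the stalk, Rplp0, Rplp1, Rplp2 and Rpl12, had a median of 0.62 at 0.2 U/ml, but the 2 at its base were lower, with Rplp0 at 0.09 and the merged entry of Rpl12 at 0.17. Under quantile scaling and centring on abundant genes Rplp0 and Rpl12 were below 0 at this dose. All 4 were below the untreated value at 20 U/ml, with a median of -0.39. The 10 genes around the exit tunnel had a median of 0.07 at 0.2 U/ml, with 5 above and 5 below 0, and -0.37 at both 2 and 20 U/ml. Under upper-quartile scaling, quantile scaling and centring on abundant genes their median at 0.2 U/ml was below 0. The 8 genes along the mRNA path and decoding site of the small subunit had a median of 0.31 at 0.2 U/ml, which turned to -0.04 under quantile scaling, and -0.29 at 20 U/ml.

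Rpl5 and Rpl11 bind the 5S ribosomal RNA and, outside the ribosome, the p53 regulator Mdm2. Rpl11 was at 1156 FPKM untreated and at 1668, 1048 and 909 FPKM at 0.2, 2 and 20 U/ml, and the merged entry of Rpl5 and Snord21 at 476, 683, 455 and 390 FPKM. The ratios of this pair were alike at every dose, at 0.53 and 0.52, then -0.14 and -0.07, then -0.35 and -0.29. The 9 genes of the list linked to Diamond-Blackfan anaemia in humans, a failure of red cell production, had a median of 0.22 at 0.2 U/ml, -0.16 under quantile scaling, and -0.29 at 20 U/ml. Rps19, the gene most often named with this disease, was at 1518, 1672, 1160 and 1111 FPKM.

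Rpl13a, the protein of the human IFNγ-dependent translation block, shares its entry with Flt3l, Mir5121 and Snord33. The entry was at 3778 FPKM untreated and at 6982, 4164 and 3246 FPKM at 0.2, 2 and 20 U/ml, with ratios of 0.89, 0.14 and -0.22. It was thus above the untreated value at the lower doses and slightly below it at the highest, where quantile scaling put it at the untreated value. Its known partners in that complex were measured too. Eprs was at 35.0, 49.9, 37.4 and 42.0 FPKM, Gapdh at 1435, 1188, 1223 and 1865 FPKM, and the merged entry of Syncrip at 58.1, 57.7, 58.4 and 52.1 FPKM. Of the kinases that act before it, Dapk3 was at 31.7, 70.7, 33.1 and 37.7 FPKM, and Dapk1 at 10.2, 12.0, 10.9 and 10.9 FPKM. The value of Dapk3 stood apart at 0.2 U/ml only.

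Rps6, the substrate of S6 kinase downstream of mTOR, was at 502, 539, 470 and 421 FPKM. Its ratio of 0.10 at 0.2 U/ml was below 0 under upper-quartile scaling, quantile scaling and centring on abundant genes, and its ratio at 20 U/ml was -0.25. Rps27a, made as a fusion of ubiquitin with a small-subunit protein, was at 1164, 1978, 1198 and 901 FPKM, with ratios of 0.76 at 0.2 U/ml and -0.37 at 20 U/ml.

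Of the 14 copies and paralogs, 7 passed the filter. Rps27rt is a copy whose coding sequence of 255 nt has no difference from that of Rps27, and Rps27l is a paralog with 77.6% identity. The first 90 coding bases (GENCODE M21, GRCm38) are shown because they bear on how far reads can separate the 3 genes, with capitals where a base differs from Rps27.
Rps27, chromosome 3, - strand: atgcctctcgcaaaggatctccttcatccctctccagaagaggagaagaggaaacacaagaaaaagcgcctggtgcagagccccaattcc
Rps27rt, chromosome 9, - strand: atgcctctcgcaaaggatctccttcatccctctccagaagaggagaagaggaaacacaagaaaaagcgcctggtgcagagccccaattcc
Rps27l, chromosome 9, + strand: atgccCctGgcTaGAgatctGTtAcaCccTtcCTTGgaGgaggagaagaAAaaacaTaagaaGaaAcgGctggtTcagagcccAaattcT

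In this stretch Rps27l differed from Rps27 at 24 bases and Rps27rt at 0. Rps27 was at 2054 FPKM untreated and at 2577, 1567 and 1638 FPKM at 0.2, 2 and 20 U/ml. Rps27rt was at 5.73, 5.88, 3.64 and 4.40 FPKM, and its reads cannot be assigned with certainty. Rps27l, a p53-inducible paralog in humans, was at 499, 502, 382 and 404 FPKM, and its untreated level was 24.3% of that of Rps27.

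Rps3a3, annotated as a processed pseudogene on chromosome 13 (108670603 to 108671397, GRCm38), was at 457, 634, 385 and 352 FPKM. Rps3a1, its core partner on chromosome 3, was at 460, 523, 404 and 344 FPKM. Their levels were nearly equal untreated, with the copy at 99.2% of the core gene, and both are reported as uncertain because their reads may be shared. Rpl36al, a paralog with 87.9% identity over the coding sequence, was at 582, 803, 534 and 557 FPKM, against 1382, 2605, 1429 and 971 FPKM for Rpl36a. At 20 U/ml the paralog stood near its untreated level, at a ratio of -0.06 that was above 0 when centred on abundant genes, and Rpl36a was at -0.51.

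Rpl22l1, with 71.2% identity to Rpl22, was at 317, 379, 247 and 248 FPKM, and Rpl22 at 1270, 1430, 943 and 951 FPKM. The ratios of this pair at 20 U/ml were -0.36 and -0.42. Rpl7l1 had values that hardly moved, like those of Rpl15, at 36.5, 36.9, 37.9 and 40.0 FPKM. The merged entry of Rpl37rt and Acads was at 32.4, 32.4, 28.0 and 29.6 FPKM. Rpl6l, Rpl39l, Rpl3l, Rps4l and Rps3a2 had a mean under 1 FPKM, and Rpl10l and Rps12l1 were listed at 0 in every group. Of 272 further entries with a -ps symbol of the family, 233 were under 1 FPKM in every group, and all 272 summed to between 781 and 1138 FPKM. Rps19bp1, at 38.3, 40.7, 30.3 and 43.9 FPKM, had the highest ratio of the 84 entries at 20 U/ml, 0.19.

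Other genes of translation were set beside the family by lists. Of 13 entries of other ribosomal and TOP mRNAs, 10 were below 0 at 20 U/ml, against 48.9% of all entries, with a median of -0.25 and none past 2-fold. Fau, which encodes another small-subunit protein as a fusion, was at 1813, 3356, 1487 and 1334 FPKM. The entry of Rack1, a scaffold on the small subunit, was at 1710, 2145, 1465 and 1301 FPKM. Tpt1, a TOP mRNA of a growth-related protein, had the lowest ratio of the list at 20 U/ml, -0.67. The entry of Eef1a1 and Gm26377 was at 38698, 111215, 60270 and 30480 FPKM, the top value again at 0.2 U/ml.

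Factors that build ribosomes had ratios of the opposite sign at 20 U/ml. Of 38 assembly factors, 33 were above 0, against 51.1% of all entries, with a median of 0.40. Only Sdad1 among them was higher by 2-fold, at 7.71 against 3.04 FPKM, where 6.51% of all entries were higher. Fbl, the methyltransferase of ribosomal RNA, was at 74.0, 106, 103 and 116 FPKM, and Bysl, a factor of small-subunit assembly, at 10.2, 12.6, 12.9 and 17.8 FPKM. Of 35 initiation factors, 23 were above 0 at 20 U/ml, with a median of 0.19 and none past 2-fold. As deposited, at 0.2 U/ml 5 of these 35 were higher by 2-fold, against 5.23% of all entries: Eif3c (1.59), Eif6 (1.18), Eif5b (1.17), Eif2b4 (1.15) and Eif2s2 (1.02). The count of ribosomal protein entries called higher at this dose fell under upper-quartile and quantile scaling. Values of these 5 factors under other scalings are not given here. Proteins of the mitochondrial ribosome, with 70 entries, had a median of 0.21 at 20 U/ml, with 51 above 0 and 1 higher by 2-fold, Mrpl3. The medians of these 3 lists at 20 U/ml were above 0 under each of the 5 scalings.

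**Figure D4:**
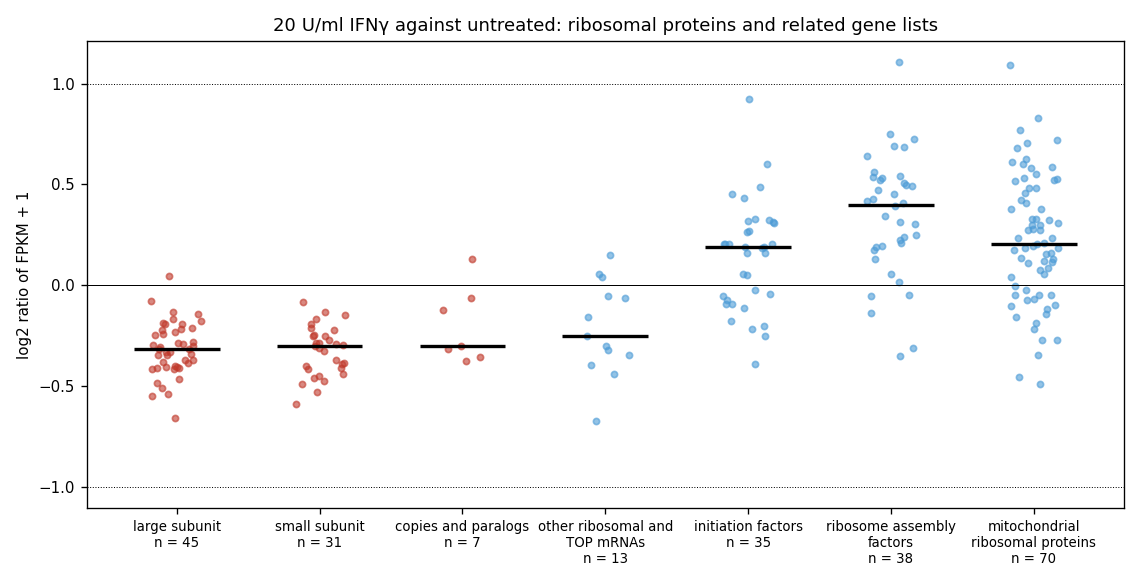
Log2 ratios of FPKM + 1 at 20 U/ml against untreated (y axis), 1 point per entry with a line at the median, for the 45 large-subunit and 31 small-subunit genes, 7 copies, 13 other ribosomal and TOP mRNAs, 35 initiation factors, 38 assembly factors and 70 mitochondrial ribosomal proteins. The cytosolic subunit genes lie below 0, with medians of -0.32 and -0.30, and the medians of the last 3 lists lie above it under each of the 5 scalings.

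The authors' deposited table also compares conditions called untreated and treated, with no dose named. In that table IFNγ response genes such as Irf1 (log2 fold change 0.38, q-value 0.0747) and Gbp2 (0.28, q-value 0.310) were not marked significant, while their ratios at 20 U/ml in the FPKM columns were 3.87 and 5.24. Of 87 ribosomal protein entries tested in the authors' deposited table, 35 were marked significant, or 40.2%, against 68.9% of all 12854 tested entries. Of the 87, 15 were significant with a positive fold change, or 17.2%, against 35.1% of all tested entries, and 20 with a negative one, or 23.0%, against 33.8%. The median size of the 35 was 0.304 on the log2 scale, against 1.35 over all significant entries. Significant or not, the 87 had a median log2 fold change of -0.009, with 41 positive and 46 negative. Over all tested entries the median was 0.037, with 6491 positive and 6251 negative. The nearly uniform lower values of the 20 U/ml column were thus not seen in this comparison, whose dose is not named.

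Of the members marked significant in the authors' deposited table, 3 reached 2-fold, or 3.45% of the 87 tested, against 46.0% of all tested entries. They were Rpl22l1 (1.15), Rpl7l1 (1.05) and the entry of Rpl37rt and Acads (-1.50), each with a q-value of 9.95e-05. None of these is a core gene on its own. Among core genes, the authors' deposited table gave Rps2 at -0.89 (q-value 0.000288), Rpsa at -0.60, Rpl10 at 0.67 and Rps27 at 0.60 (each q-value 9.95e-05). In the FPKM columns at 20 U/ml, Rpl22l1 (-0.36), Rps27 (-0.33) and Rpl10 (-0.18) had the opposite sign. Rpl7l1, the entry of Rpl37rt, Rps2 and Rpsa had the same sign in both. Of the copies and paralogs, Rps27l was at -0.82 and Rpl36al at -0.62 in the authors' comparison (each q-value 9.95e-05). Rps3a3 (0.64), Rps27rt (-0.42), Rpl39l (-0.27), Rpl6l (-0.24) and Rps4l (-0.12) were not marked significant.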

How the data were processed

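RNA-seq of 12 libraries in 4 groups was summarised by the authors. The submitters' processing notes name TopHat2 2.1.1, Cufflinks 2.1.1, Cuffdiff 2.1.1 and build mm10. Values in the deposited expression table are FPKM, as its headers say, 1 for each group. The untreated column names no unit and was read as FPKM from its range. The label of the highest dose gives its unit without a volume and was read as U/ml. Whether a value combines the 3 libraries of a group is not stated in the labels, and the depth per sample is unknown. The second deposited table holds the authors' log2 fold change, test statistic (a score), p-value and q-value, per the file headers, and its 2 columns of values were not used because they name no group.

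Ratios are differences of log2(FPKM + 1) with a mean of at least 1 FPKM and no 0, computed with Python 3.11.15 and pandas 2.3.3 and tested on simulated data. Limma was planned only for a table with values per library, so no test was made. Entries were called by a ratio of at least 1 in size. Upper-quartile scaling, quantile scaling, other pseudocounts and filters, and entries without merged genes were alternatives. Centring on abundant genes, a trend on GC content and length, and core genes alone were added after seeing the data. The members and lists were chosen with earlier results of these data known. Genes were named by a rule: the 5 highest and 5 lowest ratios per dose, members past the size rule, the 5 most and least abundant, copies with partners, members with a listed role, and up to 3 entries of each other list. Further list members were named after their values were seen. GENCODE M21 gave positions on GRCm38, which mm10 is based on, for all 91 members. Start windows came from RefSeq (GRCm38.p6). Some genes taken by these rules are counted but not reported here by name.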

Additional observations from a re-analysis of the deposited data

How the results depend on the processing

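Of the counts, medians and shares of the whole list, 288 values under alternatives stayed close to the reported one and 25 did not. The count of 4 entries higher at 0.2 U/ml was 2 under upper-quartile scaling, 0 under quantile normalization, 2 with merged entries left out and 2 when centred on abundant entries. The median ratio at 0.2 U/ml was -0.10 under quantile normalization, with 30 entries above 0 in place of 70. Entries below 0 at this dose, 14 as reported, were 27 under upper-quartile scaling, 54 under quantile normalization, 32 when centred and 9 without merged entries. The 10 entries above 0 at 2 U/ml were 4 under upper-quartile scaling and 17 under quantile normalization. The 3 above 0 at 20 U/ml were 5 with no filter, 1 under upper-quartile scaling, 1 with core genes alone and 6 when centred. In the step from 0.2 to 2 U/ml the 2 above 0 were 4 under upper-quartile scaling, 31 under quantile normalization (with 50 below 0 and a median of -0.06 in place of -0.53), 1 with core genes alone and 9 when centred. From 2 to 20 U/ml the 30 above 0 were 16 under upper-quartile scaling. Entries with their highest value at 0.2 U/ml were 27 under quantile normalization in place of 68. The count of 6 entries lower in the step from 0.2 to 2 U/ml was 0 under quantile normalization and 3 with merged entries left out, which removes members by construction, as do core genes alone. The cause of the other differences was not tested. Under upper-quartile scaling the median ratio of all entries was -0.10, -0.05 and -0.11 at 0.2, 2 and 20 U/ml. Under quantile normalization it was -0.10, -0.02 and -0.07, and as deposited it was 0.002, 0.010 and 0.011. Of the ratios of single members, 2003 values under alternatives stayed close and 4 moved by more than 1.5 times. These 4 were all at 0.2 U/ml under quantile normalization: Rpl37a to 0.18, Rpl41 to -0.24, Rpl18 to 0.27 and Rplp1 to 0.42. A move of 1.5 times is 0.585 on the log2 scale, which is larger than most ratios of the members. A value could therefore change sign and still count as close. At 0.2 U/ml Rpl32 went from 0.41 to -0.13 and Rps12 from 0.33 to -0.24 under quantile normalization, and both counted as close.

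No paired analysis was possible because the table holds 1 value per group, which leaves no replicate to pair or to leave out. Without libraries, no spread between replicates is known, and no difference has an error. Differences of merged, copied or very abundant genes rest on how the authors' programs assigned reads, and the depth that limits low entries is unknown.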

Other observations

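Genes of the signalling and transcription systems that act on ribosome production were also measured. Of 21 mTOR and S6 kinase genes, 2 were lower by 2-fold at 20 U/ml, against 2.94% of all entries, and 13 were above 0, against 51.1%. Sesn1, which restrains mTOR when amino acids are short, was at 68.1 FPKM untreated and at 48.9, 32.8 and 23.1 FPKM at 0.2, 2 and 20 U/ml, a ratio of -1.52 at the highest dose. Tsc1, part of the complex that keeps mTOR inactive, was at 12.0, 25.9, 6.76 and 5.35 FPKM, a ratio of -1.04 at 20 U/ml. Their relatives on the list differed, with ratios at 20 U/ml of 0.65 for Sesn2 and -0.24 for Tsc2. Ddit4, also on the list, had a ratio of 0.67 at that dose. Larp1, the protein that binds TOP mRNAs, was at 26.7, 36.8, 37.8 and 46.0 FPKM, above the untreated value at each dose. Mtor itself was at 6.84, 5.86, 8.26 and 8.72 FPKM.

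In the Myc network, Myc was at 17.4 FPKM untreated and 17.5 FPKM at 20 U/ml. Its partner Max was at 55.3, 57.9, 75.9 and 128 FPKM, a ratio of 1.20 at 20 U/ml. Mxd1, an antagonist of Myc that shares an entry with Gm44292, was at 2.52 FPKM untreated and 6.85 at 20 U/ml, and Mxd4 at 25.6 and 10.6 FPKM. Among genes that block translation in the interferon response, Ifit1, Ifit2 and Ifit3 had ratios between 4.34 and 5.03 at 20 U/ml, and the kinase Eif2ak2 one of 1.56. No value here bears on the amount of protein or the rate of translation.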
